A study of Mus musculus with 15 samples.

Results

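The genes described here are 192 genes whose transcripts were higher in mouse spermatogonial stem cell cultures after 18 h without GDNF and GFRalpha1, and had lost at least 50% of that difference by 8 h after both were given back. They were chosen by their measured values, out of 13081 genes with 1 gene symbol on the arrays (1.47%). Signals were taken as log2 of signal plus 16, and a gene, represented by its probe set of highest mean, needed a mean on that scale no lower than that of a signal of 30.5. A member had a withdrawal mean at least 0.7 above the maintained mean, the withdrawal rise. All 3 of its withdrawal arrays had to lie above all 3 maintained arrays. Of 368 genes that met both conditions, these 192 (52.2%) met the last one, and the other 176 were still high at 8 h. The values on the maintained, withdrawal and 8 h arrays therefore chose the members and are given as a description, without a test. All 192 passed the filter on low values because the rule requires it. Among them 189 are annotated as protein-coding, 2 as long non-coding RNA and 1 as a transcribed pseudogene, and 4 carry clone identifiers and are not named.

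RNA came from germ cell cultures enriched for spermatogonial stem cells, started from C57BL/6 males aged 6 days and kept in serum-free medium. Withdrawal cultures lacked GDNF and GFRalpha1 for 18 h. Replacement cultures lacked them for 18 h and then had both back for 2, 4 or 8 h. Maintained cultures had GDNF, GFRalpha1 and bFGF throughout. There were 5 groups of 3 samples, each on its own single-colour Affymetrix array, 15 arrays altogether. Values are given as MAS5 signal, an arbitrary linear unit. No group stayed without the factors past 18 h and none was handled alike without receiving them, so the return of the factors cannot be told apart from handling or time. Whether replicates came from different cultures is not labelled, so p-values measure only how the arrays of a group differ, which may be technical. In bulk RNA, fewer cells of a type and less RNA per cell cannot be told apart.

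GDNF (glial cell line-derived neurotrophic factor) binds the co-receptor GFRalpha1 and activates the receptor kinase RET. In spermatogonial stem cells this drives self-renewal through the PI3K-AKT, SRC-family and RAS-ERK routes. AKT keeps FOXO factors out of the nucleus and favours mTORC1 activity, so FOXO targets and mTORC1 inhibitors are commonly studied when a growth factor is taken away.

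**Figure D1:**
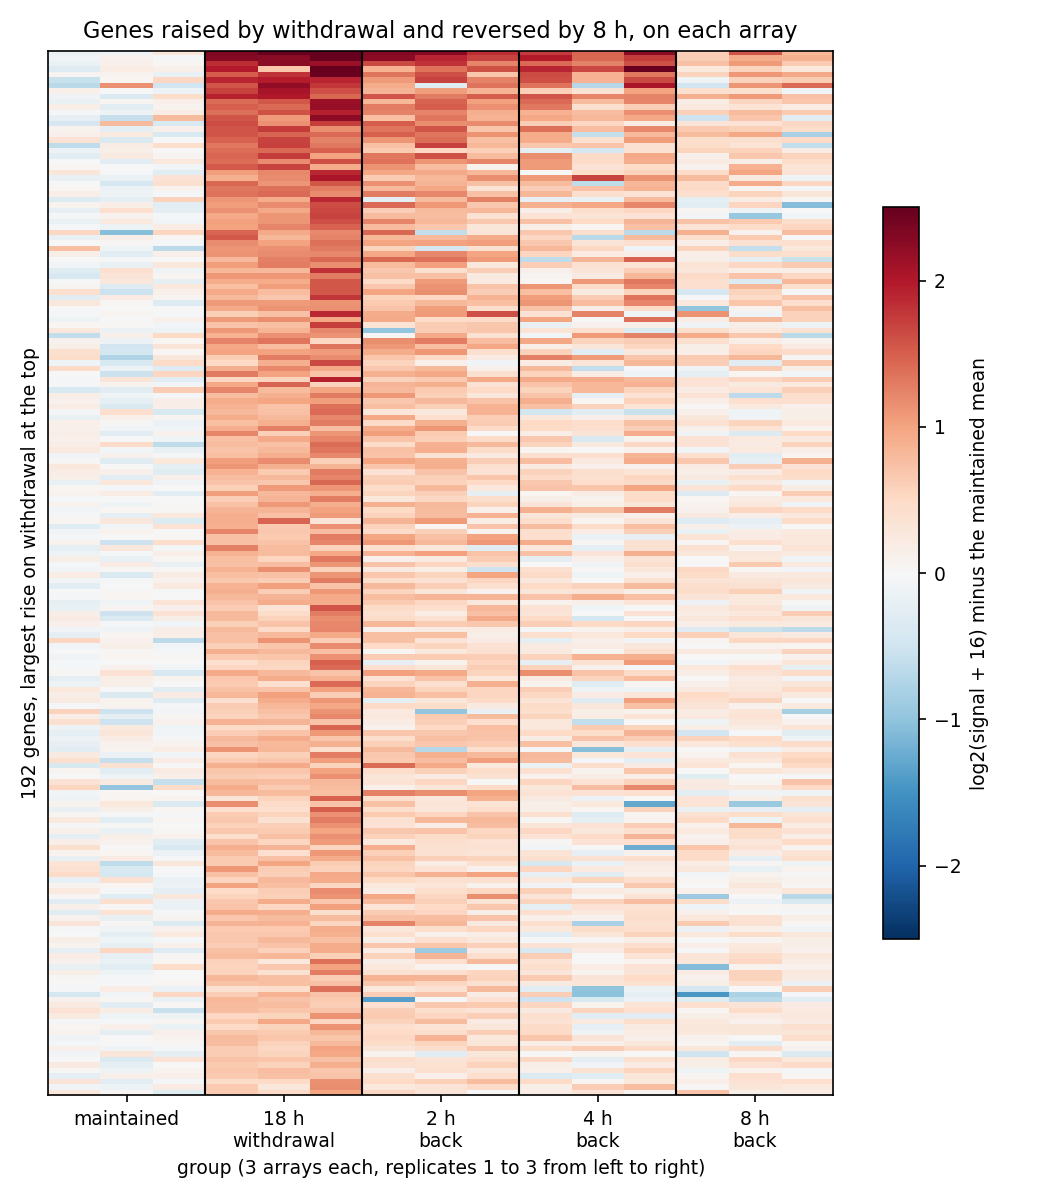
Each row is 1 of the 192 genes, ordered by withdrawal rise, and each column is 1 of the 15 arrays. Colour gives log2(signal + 16) minus the gene's maintained mean, red above and blue below. The median of the members was 7.98 to 8.23 on the withdrawal arrays and 7.10 to 7.12 on the maintained arrays, and it was lower at 4 h and 8 h than at 2 h.

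The median log2 value over the members was 7.98, 8.03 and 8.23 on the withdrawal arrays, against 7.10, 7.10 and 7.12 on the maintained arrays. After replacement it was 7.67 to 7.83 at 2 h, 7.27 to 7.59 at 4 h and 7.23 to 7.37 at 8 h. The 2 h arrays lay below the withdrawal arrays and above the 4 h arrays, while the 4 h and 8 h arrays overlapped. Withdrawal replicate 3 had the highest member median and stood apart in a control of RNA quality, the signal of the beta-actin 3′ probe set over that of the 5′ one. That ratio was 2.77 on it and 1.10 to 1.75 on the other 14 arrays. Without that array the rule chose 184 genes, 125 of them shared with the 192. Over all probe sets, any pair of arrays had a Pearson r of 0.936 to 0.974.

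Markers of the germ cells were present throughout: the summed signal of 13 of 15 listed genes ran from 16602 to 18672 on withdrawal arrays and from 17489 to 19224 on maintained arrays. Nanos2 and Nanos3 of that list were under the filter, and 1 member, Zbtb16, is in it. Markers of other cells moved with time after replacement, and those of endothelial and blood cells also differed between withdrawal and maintained arrays. The summed signal of 20 of 22 fibroblast genes was 10929 to 17417 on withdrawal arrays, against 11571 to 14786 on maintained arrays. It was 7293 to 12196 at 2 h, 19562 to 23126 at 4 h and 18781 to 23542 at 8 h. The sum of 12 of 14 Sertoli cell genes was 2617 to 3100 on withdrawal arrays, against 2769 to 3001 on maintained arrays. It came to 2359 to 2896 at 2 h, 3485 to 4177 at 4 h and 3516 to 3814 at 8 h, with the defining marker Amh under the filter. The sum of 11 of 14 endothelial and blood cell genes was 1731 to 1763 on withdrawal arrays, against 1378 to 1695 on maintained arrays, without overlap. It came to 1712 to 2657 at 2 h, 2728 to 2863 at 4 h and 2654 to 3692 at 8 h, with Pecam1 and Ptprc under the filter. Only 4 of 11 Leydig and peritubular genes passed it, and Insl3 and Cyp17a1 did not. None of these 4 lists of other cells holds a member, and their part in the results was not tested.

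The withdrawal rise ran from 0.70 to 2.58 on the log2 scale with a median of 0.87, or 1.82-fold, and 62 members had a rise of at least 1. The median signal over members was 243 in withdrawal cultures and 123 in maintained cultures. In limma's fit across all 13081 genes, at an adjusted p under 0.05, 161 of the members (83.9%) were called higher on withdrawal, where 4.21% of all genes were. At 8 h against withdrawal 68 members (35.4%) were called lower, where 1.09% of all genes were. Both contrasts chose the members, so nothing is read from these shares.

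The largest rises were in Zmym3, Camk2n1 and Rragd, whose proteins act in chromatin, calcium signalling and nutrient sensing. Zmym3 encodes a zinc finger protein found with LSD1 and CoREST in a histone-modifying complex. Its signal was 681, 873 and 902 on the 3 withdrawal arrays, against 107, 112 and 153 on the maintained arrays, 5.99-fold on the log2 scale. It was 658, 653 and 479 at 2 h of replacement, 447, 365.5 and 641 at 4 h and 196, 397 and 231 at 8 h. All 8 h arrays lay below all withdrawal arrays and above all maintained arrays, and 60.9% of the rise was gone by then. Its 3 other probe sets had withdrawal rises of 1.64 to 2.44 and differed by -1.34 to -0.44 at 8 h against withdrawal. The smallest return, -0.44, was of a probe set with a rise of 1.70, which would not meet the share required at 8 h.

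Camk2n1 encodes an inhibitor of the calcium- and calmodulin-dependent kinase CaMKII. Its signal was 811, 791 and 1023 after withdrawal, against 145, 164 and 148 in maintained cultures, a difference of 5.26-fold. Replacement gave 783, 613 and 528 at 2 h, 647, 441 and 548 at 4 h and 243, 302 and 297 at 8 h. The 2 h arrays overlapped the 4 h arrays, and the 8 h arrays lay below both, with 66% of the rise gone. Another probe set of Camk2n1, much dimmer, differed by 0.37 on withdrawal.

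Among genes of nutrient sensing by mTORC1, the kinase complex that promotes protein synthesis and growth, 5 members were gathered after their values had been seen. Rragd encodes a Rag GTPase that recruits mTORC1 to the lysosome and is a target of the TFEB family of factors. Its signal was 959, 1281.5 and 1196 on withdrawal arrays, against 226, 279.5 and 265.5 on maintained arrays (4.24-fold). It was 838, 937 and 614 at 2 h, 707, 629 and 806 at 4 h and 438, 550.4 and 405 at 8 h, where no array reached the lowest value of 2 h or 4 h. Another probe set of Rragd, dimmer, differed by 1.08 on withdrawal. At 8 h against withdrawal it differed by -0.41, which would not meet the share required. Ddit4, also called REDD1, is a stress-induced inhibitor of mTORC1. Its signal was 2318, 2571 and 3856 after withdrawal, against 1158.5, 1261 and 1159.6 in maintained cultures (2.37-fold). It was 2076, 2048 and 1564.5 at 2 h, 1546, 1489 and 1546 at 4 h and 1135, 607 and 1138.5 at 8 h. All 8 h arrays lay under all maintained arrays, replicate 2 far under, so that 129% of the rise was gone. The other 3 members are Depdc5, a subunit of the GATOR1 inhibitor of mTORC1, Wdr24, a subunit of its counterpart GATOR2, and Atp6v1b2, a subunit of the proton pump that acidifies lysosomes. Depdc5 averaged 280.0 ± 97.3 in withdrawal cultures and 153 ± 30.5 in maintained cultures (SD, n = 3 each). Its other probe sets did not share that rise. They differed by -0.09 to 0.25 on withdrawal and by -0.10 to 0.15 at 8 h against withdrawal. All 5 genes had lower means at 4 h than at 2 h of replacement, as did 76.6% of members and 51.6% of all genes. Their log2 differences were -0.72 to -0.14, and none was called lower, where 0.252% of all genes were (lowest adjusted p = 0.119).

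Among the FOXO factors and their targets, Foxo1, Ddit4 and Txnip were members. Foxo1 encodes the FOXO factor that spermatogonial stem cells need for their maintenance. Its signal was 845, 851 and 1028 after withdrawal, against 524, 499 and 575 in maintained cultures (1.68-fold). It was 655, 722 and 779 at 2 h, 638, 738 and 715 at 4 h and 481.5, 586 and 491 at 8 h. The 2 h and 4 h arrays overlapped and the 8 h arrays lay within or near the maintained range. Its 2 other probe sets differed by 1.13 and by 0.13 on withdrawal. Txnip encodes an alpha-arrestin that lowers glucose uptake and binds thioredoxin. Its signal was 1263, 1617.5 and 1443 on withdrawal arrays, against 801, 702 and 774 on maintained arrays (1.87-fold). It was 1418, 1334 and 1124 at 2 h, 950.2, 841.5 and 944 at 4 h and 809.5, 913.5 and 706 at 8 h of replacement. Every 4 h array lay below every 2 h array, a log2 difference of -0.49 that missed the threshold (adjusted p = 0.0783). A second Txnip probe set was lower at 4 h than at 2 h by 1.10. It differed by 0.62 on withdrawal, under the minimum rise, and by only -0.06 at 8 h against withdrawal.

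Arrdc3, another alpha-arrestin, which directs the internalisation of receptors, had a different course. Its signal was 344.5, 333 and 324 after withdrawal, against 177, 194 and 189 in maintained cultures (1.73-fold). It was 467, 437 and 387 at 2 h, 243, 243 and 255 at 4 h and 152, 173 and 172 at 8 h. All 2 h arrays lay above all withdrawal arrays, and all 8 h arrays lay under all maintained arrays. The 2 h value was not called against withdrawal (adjusted p = 0.456).

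**Figure D2:**
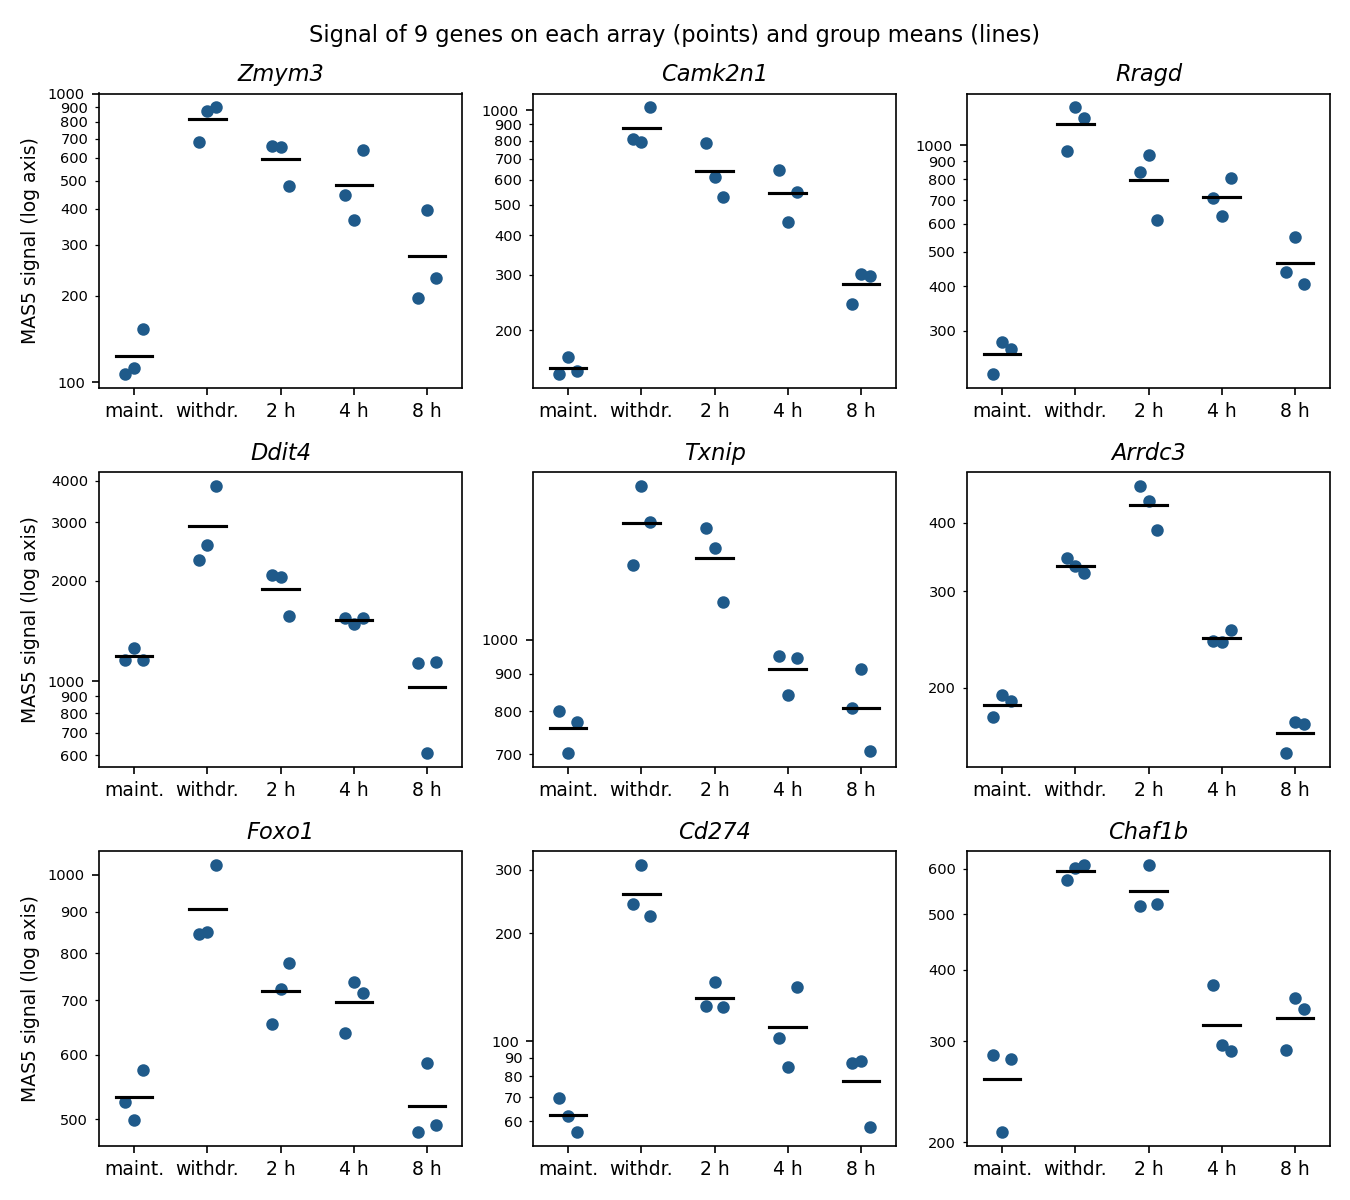
Points are MAS5 signal on single arrays on a log axis and lines are means of the 3 arrays, for maintained cultures, 18 h of withdrawal, and 2, 4 and 8 h of replacement. Arrdc3 had its highest values at 2 h, 387 to 467, whereas Zmym3, Camk2n1 and Rragd were lower at each later time and still above the maintained arrays at 8 h.

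Promoters were read for 154 of the 192 members from RefSeq on the GRCm38.p6 build, 250 bases before to 50 after each start. Members with 1 listed start or more were set beside 10568 tested genes and 32851 promoters in all. The FOXO core TGTTTAC, on either strand, was in promoters of 5 members (3.25%), against 3.08% of tested genes and 3.65% of all promoters. The E-box CACGTG, bound by MYC, MAX and TFEB-family proteins, was in 18 (11.7%), against 11.5% of tested genes. The ETS core CCGGAAG was in 21 (13.6%), against 18.6% of tested genes, and the AP-1 site TGACTCA in 8 (5.19%), against 4.65%. The CRE TGACGTCA was in 3 (1.95%), against 3.32%. No motif holds another or its reverse complement. The highest CpG count among a gene's promoters had a median of 21 over members and of 21 over tested genes. Members had 1.49 listed promoters per gene against 1.27, which by itself can raise a highest count or the share with a motif. For 4 of the motifs 1 promoter of a member described here is printed, 5′ to 3′, to show the sequence around the match, with the matched letters in capitals. Txnip (chr3:96557707-96558006, plus strand) has GTAAACA, the FOXO core read on the other strand, with its first base at -121 from the start. Mxd4 (chr5:34187661-34187960, minus strand) has the E-box at -219. Chaf1b (chr16:93883651-93883950, plus strand) has the ETS core at -136. Upp1 (chr11:9117758-9118057, plus strand) has TGAGTCA, the AP-1 site on the other strand, at -45. A match is a description of letters and not a site.
Txnip: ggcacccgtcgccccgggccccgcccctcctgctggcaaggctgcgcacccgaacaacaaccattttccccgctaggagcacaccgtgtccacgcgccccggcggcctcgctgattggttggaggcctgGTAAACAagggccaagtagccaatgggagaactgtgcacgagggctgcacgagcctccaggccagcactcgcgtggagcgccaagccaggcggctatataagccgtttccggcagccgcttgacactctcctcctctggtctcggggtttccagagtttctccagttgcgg
Mxd4: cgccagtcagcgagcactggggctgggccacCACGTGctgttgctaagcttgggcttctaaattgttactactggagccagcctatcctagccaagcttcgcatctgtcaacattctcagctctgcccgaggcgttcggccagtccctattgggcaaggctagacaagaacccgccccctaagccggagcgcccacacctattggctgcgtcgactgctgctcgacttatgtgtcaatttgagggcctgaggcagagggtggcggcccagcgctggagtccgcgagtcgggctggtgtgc
Chaf1b: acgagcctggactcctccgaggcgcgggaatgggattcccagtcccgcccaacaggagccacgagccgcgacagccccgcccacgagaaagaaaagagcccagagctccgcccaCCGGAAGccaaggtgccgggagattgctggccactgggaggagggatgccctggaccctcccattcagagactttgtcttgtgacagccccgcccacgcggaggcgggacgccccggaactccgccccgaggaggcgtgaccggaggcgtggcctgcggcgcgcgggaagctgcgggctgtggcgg
Upp1: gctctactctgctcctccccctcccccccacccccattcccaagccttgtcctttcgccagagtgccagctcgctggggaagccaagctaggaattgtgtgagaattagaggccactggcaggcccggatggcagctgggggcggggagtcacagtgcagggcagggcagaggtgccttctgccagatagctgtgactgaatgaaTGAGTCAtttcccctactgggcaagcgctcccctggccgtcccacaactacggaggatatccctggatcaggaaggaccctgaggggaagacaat

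Several members encode secreted factors, receptors or proteins acting on receptors. Igfbp6, a binding protein for insulin-like growth factor II, had signals of 876, 1067.5 and 1696 after withdrawal, against 309.9, 316 and 262 in maintained cultures (3.8-fold). It was at 768, 939 and 488 at 2 h, 949, 551 and 760.0 at 4 h and 441, 641 and 586 at 8 h, where 55.3% of the rise was gone and every array was still above the maintained ones. Smoc1, a secreted antagonist of BMP signalling, was at 673, 639.6 and 1087 on withdrawal arrays, against 259, 189 and 246.5 on maintained arrays (3.23-fold). It was at 580.4, 684 and 527 at 2 h, 593, 307 and 359 at 4 h and 276, 297 and 263 at 8 h. Its 4 h arrays overlapped those of 2 h because of replicate 1. Sfrp1, a secreted WNT antagonist, averaged 509.8 ± 69.1 in withdrawal cultures and 288 ± 49.7 in maintained cultures (SD, n = 3 each), and 1 of its 4 other probe sets was higher, not lower, at 8 h than on withdrawal. Kif26a, an atypical kinesin that restrains GDNF-RET signalling in mouse enteric neurons, was at 74.8, 21.1 and 240.0 after withdrawal, against 2.5, 10.3 and 9 in maintained cultures. The withdrawal arrays spread over a wide range, and the maintained mean was under a signal of 30.5, where the fold of 4.14 depends on the added 16. That limit holds for 18 members in all. Another of them is Esr1, the estrogen receptor gene, at 116, 121.5 and 117 on withdrawal arrays and 7.9, 20.7 and 34.3 on maintained arrays. Its withdrawal arrays lay close together and 80.8% of the rise was gone at 8 h. Another probe set of Esr1, dimmer, differed by 0.62 on withdrawal and by only -0.004 at 8 h against withdrawal. Hes5, a repressor induced by Notch, averaged 121 ± 27.4 in withdrawal cultures and 35.6 ± 26.6 in maintained cultures. It was at 119, 90.3 and 92.2 at 2 h and 57.2, 52 and 38.4 at 4 h of replacement, a difference of -0.84 without overlap that was not called (adjusted p = 0.135).

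Among chromatin and nuclear factors, Bnc2, a zinc finger protein of the basonuclin family, was at 977, 1135 and 1452 after withdrawal, against 352, 336 and 417 in maintained cultures (3.1-fold). It was at 883, 879 and 703 at 2 h, 686, 635 and 824 at 4 h and 564, 650.3 and 588 at 8 h, where the arrays stayed well above the maintained level. Kdm5b, a demethylase of histone H3 lysine 4, averaged 1749 ± 114 in withdrawal cultures and 1059 ± 142 in maintained cultures (SD, n = 3 each). Its dimmest probe set differed the other way, by -0.36. Sertad4, a SERTA-domain gene, averaged 572.5 ± 118 in withdrawal cultures and 191 ± 27.8 in maintained cultures (SD, n = 3 each). Mxd4, which competes with MYC for the partner MAX, was at 233, 258 and 510.2 on withdrawal arrays, against 168, 172 and 171 on maintained arrays. Withdrawal replicate 3 lay well above the other withdrawal arrays, which were themselves above all maintained arrays. A group of 8 chromatin members was gathered after their values were seen, among them Phf21a of the LSD1 complex, Smarcc1 of the BAF remodeller and Asxl1 of a Polycomb-linked deubiquitinase. All 8 had lower means at 4 h than at 2 h, as did 76.6% of members and 51.6% of all genes. Their log2 differences were -0.76 to -0.04. Of the 8, 2 were called lower, Chaf1b and Cbx2, where 3.12% of members and 0.252% of all genes were. Of the 50 tested genes of the whole chromatin list, Cbx2 alone was called lower and 0 were called higher.

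Of germ cell genes, Upp1, a uridine phosphorylase listed here with progenitor genes, was at 134, 151 and 235 after withdrawal, against 34.6, 43.1 and 46.1 in maintained cultures (3.24-fold). It was at 85.5, 141.5 and 99.7 at 2 h, 136, 83.1 and 117 at 4 h and 49.2, 66.4 and 75.9 at 8 h, with overlap between 2 h and 4 h. Zbtb16, or PLZF, a repressor of undifferentiated spermatogonia, was at 2107, 2157 and 3140.4 on withdrawal arrays, against 1378, 1443 and 1420.3 on maintained arrays. It was at 1814, 1586 and 2416 at 2 h, 1736, 1808.5 and 2169 at 4 h and 1516, 2537 and 1621 at 8 h, and 1 array of 8 h was as high as the withdrawal arrays. At 8 h 51.2% of the rise was gone, just over the minimum. Its 2 other probe sets differed by 0.86 and 0.71 on withdrawal. At 8 h against withdrawal they differed by only -0.36 and -0.11, which would not meet the share required. Rec8, a cohesin subunit of meiosis, averaged 107 ± 50.6 in withdrawal cultures and 25 ± 21.2 in maintained cultures, and Tekt2, a tektin of sperm flagella and cilia, averaged 72.9 ± 18.2 in withdrawal cultures and 10.1 ± 7.98 in maintained cultures (SD, n = 3 each). Rec8 and Tekt2 were dim in maintained cultures. Cep126, which encodes a centrosomal protein, was at 133, 216 and 154 after withdrawal, against 15.6, 95.6 and 20.1 in maintained cultures (3.59-fold). It was at 80.3, 24.9 and 112 at 2 h, 113, 14.5 and 191 at 4 h and 20.3, 92.4 and 119 at 8 h, and the spread within each of these groups was wide. Its other probe set differed by 0.27 on withdrawal. A group of 8 members of cilia and centrosomes, gathered after their values were seen, was evenly divided at 4 h against 2 h, with 4 lower and 4 higher. Over all members 76.6% were lower there, and over all genes 51.6%.

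Of immune genes, Cd274, which encodes the checkpoint ligand PD-L1, was at 240.5, 309 and 223 after withdrawal, against 69.6, 62.1 and 55.9 in maintained cultures (3.46-fold). It was at 125, 146.5 and 124 at 2 h, 102, 84.9 and 142 at 4 h and 87, 88 and 57.8 at 8 h. All 2 h arrays already lay under all withdrawal arrays, and 48.9% of the rise was gone at that time. Irf1, an interferon-regulated transcription factor, was at 1089.5, 1255.5 and 1533 on withdrawal arrays, against 704, 645.5 and 597 on maintained arrays (1.95-fold). It was at 1078, 993 and 907 at 2 h, 1046, 493 and 690.3 at 4 h and 836, 766 and 762 at 8 h, with the 4 h arrays spread widely. Oasl2, an oligoadenylate synthetase-like gene induced by interferon, averaged 203 ± 55.8 in withdrawal cultures and 65.9 ± 3.36 in maintained cultures (SD, n = 3 each). A group of 8 such genes, gathered after their values were seen and including Irf8 and the interferon-induced GTPases Igtp and Irgm2, had rises of 0.76 to 1.79. Of these, 7 had lower means at 4 h than at 2 h, as did 76.6% of members and 51.6% of all genes. None was called in limma, where 0.252% of all genes were called lower (lowest adjusted p = 0.266).

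The share of the rise gone at each time differed between members, but whether by more than measurement error was not tested. The standard error of a log2 difference was 0.19 in the median gene, against a median rise of 0.87. A share of 100% gone means a mean at the maintained level, and a negative share a mean above withdrawal. At 2 h the median share gone was 33.9% (quartiles 20.4% and 49.6%), at 4 h 58.7% (41.7% and 78.5%) and at 8 h 72.0% (59.8% and 90.6%), where the rule sets the minimum. The withdrawal arrays that chose the members as high also enter each share. A high value there can raise the shares at 2 h and 4 h, so they and the counts below are a description. Without withdrawal replicate 3 the median share at 2 h was 27.4%. By 2 h 47 members had lost at least 50% of their rise, 83 more first did so at 4 h and 62 only at 8 h. Of the 47, 7 were again under 50% at 4 h. At 2 h 13 members were still above withdrawal, and at 4 h 2 were. At 8 h 163 members were above and 29 under their maintained mean, with a median of 0.28 above it on the log2 scale, against 0.06 over all genes.

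**Figure D3:**
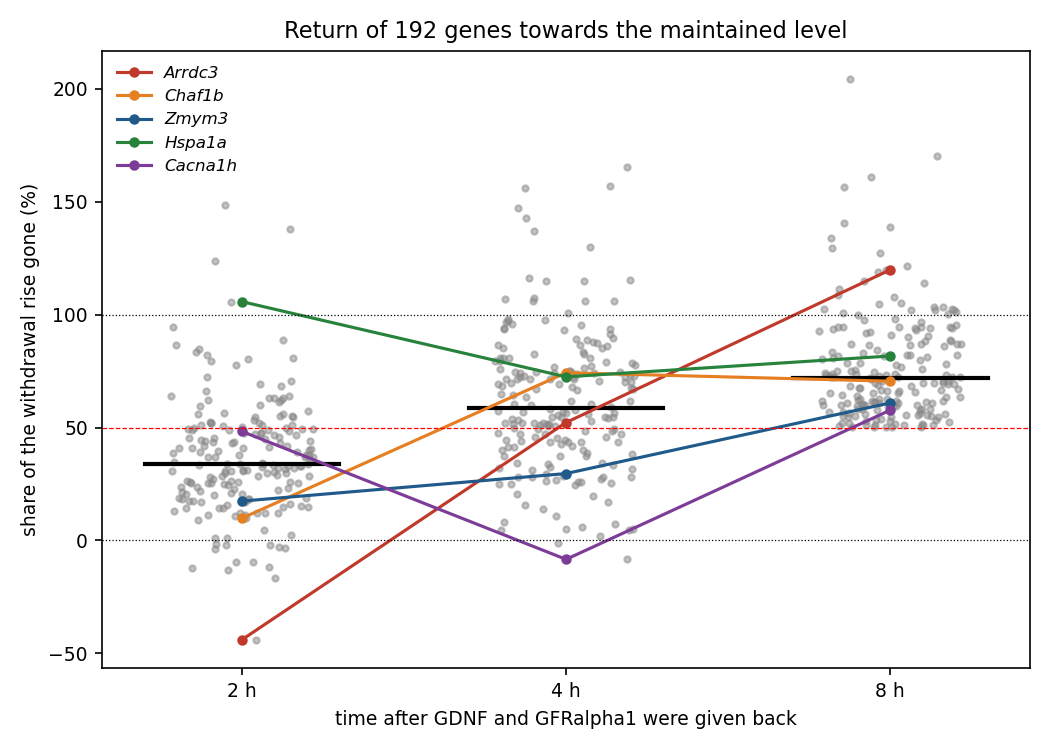
Each grey point is 1 of the 192 genes, and the vertical axis is the share of its withdrawal rise that was gone at 2, 4 and 8 h of replacement, in percent. Black bars are medians (33.9%, 58.7% and 72.0%), the red dashed line is the 50% that the rule requires at 8 h, and coloured lines follow 5 named genes.

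The largest shares gone at 2 h were of Tmppe, Wdr60, Sprn, Hspa1a, Cdpf1 and C8g. In limma Hspa1a and Cdpf1 were called higher on withdrawal. Tmppe, Wdr60, Sprn and C8g were not (adjusted p = 0.143, 0.1671, 0.1715 and 0.0816). Hspa1a, the stress-inducible Hsp70 chaperone, was at 215, 269 and 175 on withdrawal arrays, against 105, 114.5 and 114 on maintained arrays. It was at 133, 125 and 72.6 at 2 h, 151, 115 and 139.6 at 4 h and 167, 114 and 105 at 8 h, so 106% of the rise was gone at 2 h. Wdr60, a dynein subunit of cilia, was dim, at 78.8 ± 18.3 in withdrawal cultures and 40 ± 21.7 in maintained cultures (SD, n = 3 each), with 138% gone at 2 h. Tmppe, a predicted phosphoesterase with a membrane span, had lost 148% of its rise at 2 h, where its arrays spread widely, at 34.9, 111.5 and 152.8. Sprn, a prion-like protein of the nervous system, had lost 124%, and C8g, a complement component, 88.7%. Both were dim, with withdrawal means of 62.9 and 67.8. At 2 h Sprn was at 37.5, 8.8 and 37.7 and C8g at 4.4, 47.1 and 49.5. For each the lowest array lay far below the others, so these shares rest on small signals. Cdpf1 had lost 94.6%. A second probe set of Tmppe differed by 0.19 on withdrawal and was not lower at 8 h.

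The smallest shares gone at 2 h were of Arrdc3, Gga1, Zfp941, Aars2, Ap1m1 and Glis1, genes that were all above their withdrawal mean then. Gga1, an adaptor of sorting at the Golgi, averaged 265 ± 64.4 in withdrawal cultures and 149.9 ± 33.5 in maintained cultures. It was at 303, 220.3 and 349 at 2 h, 188, 153 and 194 at 4 h and 70.8, 149 and 85.5 at 8 h, with all 4 h arrays under all 2 h arrays and 170% gone at 8 h. Ap1m1, a clathrin adaptor subunit, was at 942, 926 and 1327 on withdrawal arrays, against 593, 386 and 766.5 on maintained arrays. It was at 1199.9, 993 and 1214 at 2 h, 1078, 589 and 732 at 4 h and 572, 756 and 677 at 8 h, and its 2 h arrays overlapped the withdrawal arrays. Glis1, a zinc finger factor of the GLI-similar family, had a share gone of -9.72% at 2 h and 119% at 8 h. For Aars2, the mitochondrial alanyl-tRNA synthetase, it was -12.1% at 2 h and 50% at 8 h. Both were dim, and their 2 h shares rest on small signals.

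Against withdrawal, whose arrays also chose the members, 0 members were called lower at 2 h by limma, as were 0% of all genes, although 54 (28.1%) were lower at an unadjusted p under 0.05, against 5.05% of all genes, and all 2 h arrays lay below all withdrawal arrays for 70 (36.5%), against 9.01% of all genes. At 4 h 44 members (22.9%) were called lower, against 0.91% of all genes, and all 4 h arrays lay below all withdrawal arrays for 123 (64.1%), against 12.6%. A high value on a withdrawal array helps a gene into the list and also widens these differences, so nothing is read from them. The count of 44 was 4 without 4 h replicate 2.

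The rule did not use the difference between 4 h and 2 h of replacement. Those arrays entered it only through the mean over all 15 arrays, which set the filter and the choice of probe set. Most members were lower at 4 h: the difference was under 0 for 147 of 192 (76.6%) against 51.6% of all genes, with a median of -0.22 against -0.01 on the log2 scale. In limma 6 members (3.12%) fell at an adjusted p under 0.05, against 0.252% of all genes, and 0 were called higher, against 1.69%. At an unadjusted p under 0.05, 46 members (24%) were lower, against 6.83% of all genes, and 1 was higher, against 8.24%. All 4 h arrays lay below all 2 h arrays for 49 members (25.5%), against 9.28% of all genes, and above them for 1, Kif26a, against 10.7% of all genes. With 3 arrays against 3 an exact rank test of a single gene cannot give a two-sided p under 0.1.

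The lower level at 4 h was not particular to genes that went on to lose the rise. Of the 176 genes that met the other conditions and were still high at 8 h, 135 (76.7%) were lower at 4 h than at 2 h, with a median of -0.22 as well. In limma 3 of those were called lower and 2 higher, and all 4 h arrays lay below all 2 h arrays for 22 (12.5%). The difference between 49 of 192 and 22 of 176 was not tested. The beta-actin ratio was 1.12, 1.52 and 1.75 on the 4 h arrays and 1.10, 1.14 and 1.28 on the 2 h arrays, and the fibroblast sum given above was higher on every 4 h array than on every 2 h array; the part of either was not tested.

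**Figure D4:**
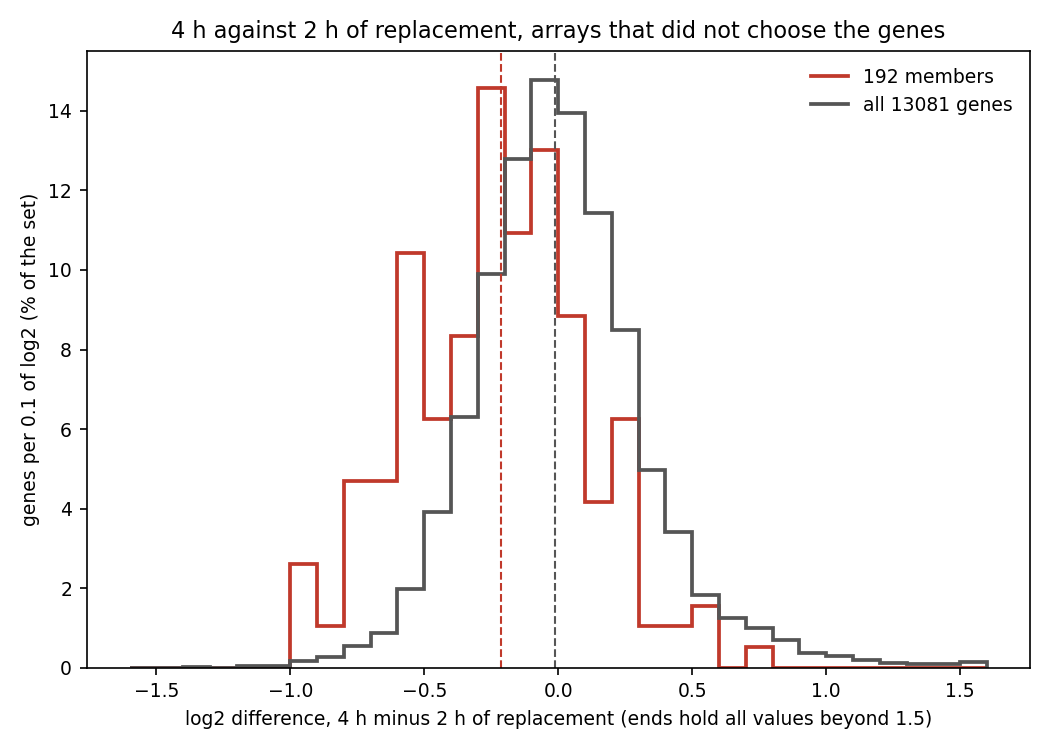
The horizontal axis is the log2 difference of 4 h minus 2 h of replacement and the vertical axis the percent of genes per 0.1, for the 192 members in red and all 13081 genes in grey. Dashed lines are the medians, -0.22 for the members and -0.01 for all genes.

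The members that fell at 4 h against 2 h were Arrdc3, Chaf1b, Acvr2b, Zfp941, Cbx2 and Bik. Arrdc3, whose signals are given above, was lower by -0.76 ± 0.12 on the log2 scale (SE, adjusted p = 0.00367), and it was called under all 15 alternatives tried. Chaf1b encodes a subunit of CAF-1, the chaperone that places histones on newly copied DNA. Its signal was 376, 296 and 288 at 4 h, against 516, 609.9 and 522 at 2 h. It had been 573, 602 and 609 on withdrawal arrays, against 284, 208 and 279.6 on maintained arrays, so the 2 h level was near that of withdrawal and the 4 h level near the maintained one. The difference was -0.76 ± 0.15 (SE, adjusted p = 0.0115). Acvr2b, a type II receptor for activin, was at 464, 306 and 298 at 4 h, against 698, 581 and 704 at 2 h (-0.89 ± 0.17, adjusted p = 0.014). It was at 581, 553 and 858 on withdrawal arrays, against 338, 340.2 and 353 on maintained arrays, and replicate 3 was the high one after withdrawal.

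Zfp941, a zinc finger gene, was at 44.3, 41.3 and 60.5 at 4 h, against 97.7, 112 and 124 at 2 h (-0.98 ± 0.21, adjusted p = 0.0238). It was dim at 4 h and had no lower level at 2 h than on withdrawal, 103 ± 14.3. Cbx2, a Polycomb protein that reads methylated histone H3, was at 479, 469 and 595 at 4 h, against 729, 754 and 726 at 2 h (-0.51 ± 0.13, adjusted p = 0.0481). The 2 h arrays lay within the withdrawal range of 706 to 767. Bik, a BH3-only inducer of apoptosis, was at 60.3, 71.3 and 55.2 at 4 h, against 114, 109.5 and 174 at 2 h (-0.90 ± 0.23, adjusted p = 0.04995). It was at 166, 158 and 262 on withdrawal arrays, against 85.4, 124 and 64.4 on maintained arrays. Chaf1b was called under 12 of 15 alternatives, Acvr2b under 11, Zfp941 under 10, Cbx2 under 3 and Bik under 2. The other probe sets of Acvr2b (-0.60), Zfp941 (-0.50), Cbx2 (-0.68) and Bik (-0.66 and -1.16) also gave lower values at 4 h. Not all of them shared the rest of the course. Those of Zfp941 and Cbx2 differed by only 0.09 and 0.15 on withdrawal, and at 8 h against withdrawal by -0.03 and 0.48. That of Acvr2b differed by 0.74 on withdrawal and by only -0.14 at 8 h against withdrawal. For Bik these values were 0.675 and 0.64 on withdrawal, then -0.87 and -0.48.

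At the other end, Kif26a, Cacna1h, Ankrd13b, Wdr60, Cracdl and Ndrg4 had the highest values of limma's moderated statistic for 4 h against 2 h, and none was called. Cacna1h, a T-type calcium channel, was at 114.5, 102 and 156 at 4 h, against 82.7, 105 and 60.6 at 2 h (0.51 ± 0.19, adjusted p = 0.213). The groups overlapped by 1 array, and the 4 h mean was above that of withdrawal, 116 ± 8.03. Kif26a was at 70.4, 56.3 and 128 at 4 h, against 26, 43.1 and 53.5 at 2 h (0.79 ± 0.48, adjusted p = 0.45). Ndrg4, a gene of the N-myc downstream regulated family, differed by 0.28 ± 0.16 (adjusted p = 0.421).

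The pathway lists held few members. Over all genes, 4.21% rose and 3.83% fell on withdrawal in limma, and 1.3% were called higher and 1.09% lower at 8 h against withdrawal. The list of progenitor and differentiating spermatogonia had 35 tested genes, of which 11 rose and 3 fell on withdrawal in limma, and 3 were members (Upp1, Zbtb16 and Foxo1). Of 40 FOXO target genes, counting the factors themselves, 6 rose and 1 fell, with 3 members, and the list median was 0.14 against 0.06 over all genes. Of 50 chromatin enzymes and repressor complex genes 7 rose and 0 fell, with Zmym3, Cbx2 and Kdm5b as members and a median of 0.15. Of 21 calcium and CaM kinase genes 4 rose and 0 fell, with 2 members and a median of -0.03. Of 42 lysosome, TFEB family and Rag GTPase genes 1, Rragd, rose and 2 fell. Of 29 cell cycle brakes and of 16 BCL2 family genes 1 each rose and 0 fell. Of 16 interferon response genes 3 rose, with Oasl2 and Irf1 as members. Of 27 nuclear hormone receptors 3 rose and 1 fell, with Esr1 as the member. Of 31 WNT genes 4 rose and 4 fell, and of 41 receptor kinase and PI3K genes 3 rose and 3 fell, with 1 member each, Sfrp1 and Ddit4. The 34 immediate-early and feedback genes of ERK, the kinase that GDNF activates through RAS, held 0 members. There 1 rose and 23 fell on withdrawal, and 15 were called higher and 0 lower at 8 h against withdrawal. At 4 h against 2 h, 1 gene each of the progenitor, BCL2 and chromatin lists was called lower, Bik and Cbx2 being those of the BCL2 and chromatin lists, where 0.252% of all genes were. Called higher, where 1.69% of all genes were, were 3 genes each of the ERK, lysosome and cell cycle lists, 2 each of the FOXO, receptor kinase and interferon lists and 1 each of the WNT and nuclear receptor lists.

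The boundary of the list is narrow. Aspa and Fbrs were just inside the minimum rise, at 0.704 each, and Npepps (0.70) and Ints3 (0.699) just outside. Aars2 and Tekt2 were just inside the share at 8 h, at 0.50 and 0.501 of the rise, and Coasy (0.494) and Rin2 (0.493) just outside. Itgb1bp2 and Wscd2 were just inside the minimum mean, at 5.544 and 5.593, and Tmem184a (5.533) and Fut7 (5.518) just outside. Of the members, 88 have 144 other probe sets above the filter, of which 132 were higher on withdrawal, 48 of them by at least 0.7. Their median withdrawal difference was 0.52, against 0.83 for the chosen probe sets beside them, and 108 of the 132 were lower at 8 h than on withdrawal. At 4 h against 2 h, which did not enter the choice, 115 of the 144 were lower, with a median of -0.27.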

How the data were processed

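Per the labels, the authors computed the array values with MAS5; the deposited values are intensity on a linear scale, with 45101 probe sets on each of 15 arrays. The mean of the middle 96% of values was 150.0 on every array, so the authors had scaled the arrays to 1 mean; neither the software version nor the scaling target is stated there. Groups came from the sample titles.

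Signals were taken as log2(signal + 16). After 64 control probe sets and those with a mean under that of a signal of 30.5 were left out, 22862 with 1 symbol in the platform annotation remained, and the brightest per gene gave 13081 genes. Group means were fitted for all 5 groups with limma 3.58.1 in R 4.3.3 (lmFit, eBayes with a variance trend, 10 residual degrees of freedom), two-sided, with Benjamini-Hochberg adjustment over 13081 genes and a threshold of 0.05. The fit was tested on simulated arrays. Named were the 15 largest rises, the 6 largest and 6 smallest shares gone at 2 h, the 6 lowest and 6 highest at 4 h relative to 2 h by limma's moderated statistic, every member called there, up to 6 members of each pathway list, and the genes at each threshold. Genes described as gathered after their values were seen fall outside this rule. The members and lists were chosen with earlier results of these data known. Alternatives were another constant, normalization, filter, probe set rule or variance model, and each array left out. Same-numbered samples did not deviate together throughout (30 pairs, r from -0.15 to 0.363, 7 over 0.1). The highest values were of maintained with 4 h arrays, 0.363 for replicate 1 and 0.257 for replicate 2. No pairing is labelled, and the numbers were not used as pairs. Promoters and gene types came from RefSeq tables (GRCm38.p6); all 192 symbols matched the gene table. With 3 arrays a group, their number limits the precision (the standard error of a log2 difference was 0.19 in the median gene).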

Additional observations from a re-analysis of the deposited data

How the results depend on the processing

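Of the 6 members called lower at 4 h than at 2 h, 3 remained with no filter on dim probe sets and 26 were called with array weights. Leaving out 1 array gave between 1 (without 4 h replicate 2, or without 4 h replicate 3) and 15 (without 4 h replicate 1), and 3, 2 and 2 without 2 h replicates 1, 2 and 3. With the replicate number as a block 5 were called, but the labels do not say that the numbers pair the samples. With members chosen anew without withdrawal replicate 3, 5 of 184 were called, and 4 of the 125 shared members; these choices were made after seeing the data. No called gene changed direction under any of 15 alternatives: the differences of Arrdc3 ran from -0.83 to -0.67 and those of Chaf1b from -0.87 to -0.68. The cause of these changes was not tested. At 2 h against withdrawal the count of 0 became 2 with array weights and stayed 0 without any 1 array and with the block. At 4 h against withdrawal the count of 44 was 16 with arrays shifted to 1 median, 18 with no filter, 1 with only both groups fitted, 21 without the variance trend, 83 with array weights, 54 with the block, and 4 to 45 with 1 array left out. The rule chose 103 genes with a constant of 64, 100 of them members, and 181 to 285 with 1 array left out. The median share gone ranged from 27.4% (without withdrawal replicate 3) to 39.6% at 2 h and from 51.3% to 63.1% at 4 h, and the median of 4 h minus 2 h from -0.27 to -0.13. Dim genes, with both groups near the added constant, are those whose folds these arrays measure least well.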

Other observations

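Members outside the pathway lists include genes of mitochondria, chosen here after their values were seen. Hadhb, a subunit of the trifunctional enzyme of fatty acid oxidation, was at 1576, 1617.5 and 1729.5 on withdrawal arrays, against 863.5, 921 and 901 on maintained arrays. It was at 1536, 1629.5 and 1624 at 2 h, 1481.5, 1691 and 1520.4 at 4 h and 1116, 1081 and 1074 at 8 h, so on this probe set most of the return came after 4 h. The 2 other Hadhb probe sets did not share that course. They differed by 0.59 and 0.28 on withdrawal, by -0.20 and 0.01 at 8 h against withdrawal, and by -0.24 and 0.07 at 4 h against 2 h. Twnk, the helicase of mitochondrial DNA, averaged 646 ± 184 in withdrawal cultures and 339.9 ± 22 in maintained cultures (SD, n = 3 each), and 47.8% of the rise was gone at 2 h. Coq8a, needed to make coenzyme Q, averaged 315 ± 81.2 in withdrawal cultures and 153 ± 27.4 in maintained cultures (SD, n = 3 each). It was lower at 4 h than at 2 h on every array (log2 difference -0.65, adjusted p = 0.071). Bckdha, a subunit of branched-chain keto acid dehydrogenase, averaged 599.6 ± 144 in withdrawal cultures and 302 ± 55.5 in maintained cultures (SD, n = 3 each). Of RNA regulators, Dicer1, the enzyme that cuts microRNA precursors, was at 754, 737 and 959 on withdrawal arrays, against 498, 338.5 and 498 on maintained arrays. It was at 705.5, 653 and 888.5 at 2 h, 616.5, 405.5 and 479.7 at 4 h and 609, 515 and 525 at 8 h, with all 4 h arrays under all 2 h arrays (adjusted p = 0.123). Another probe set of Dicer1 differed by 0.46 on withdrawal and by only -0.06 at 4 h against 2 h. Msi2, an RNA-binding protein of the Musashi family, averaged 518 ± 95.2 in withdrawal cultures and 290.3 ± 60.6 in maintained cultures (SD, n = 3 each), and 134% of its rise was gone at 8 h. Its other probe sets differed by -1.08 to 0.05 at 8 h against withdrawal.

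Among the 4151 probe sets above the filter that carry no symbol or several, 47 (1.13%) met the same rule, against 1.47% of named genes. Another 58 genes met it with a mean under the filter, where the constant sets much of a difference.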
